A study of Mus musculus with 32 samples.

Results

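The genes described here are those with exactly 2 separately counted 3′ ends, the simplest case in which the transcripts of a gene can end in more than a single place. They were chosen by their number of entries in the table of individual 3′ ends and not by any measured value. Of the 44081 genes in that table, 5477 had exactly 2 ends, which gave 10954 of the 74532 ends, while 31100 genes had 1 end and 7504 had 3 or more. For each gene, the reads on its ends were turned into the fraction that lay on the lower-numbered end, in each neuron and compartment with at least 10 reads on the gene. Genes with at least 10 reads in both the dendrites and the soma of at least 5 neurons entered the comparison, which addressed whether the 2 compartments of a neuron hold the same mixture of ends.

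The neurons were cultured for 15 days from the hippocampus of C57BL/6 mice at embryonic day 18, and both groups, dendrites and somas, consist of the same 16 neurons, for which the labels give no treatment. A micropipette separated the dendrites of each neuron from its soma, and poly-adenylated RNA of both was amplified by in vitro transcription (the aRNA method) and sequenced, 1 library per compartment and 32 in all. The labels give 3 rounds of amplification for neurons 1 to 4 and 2 rounds for the other 12, always the same for both compartments of a neuron, and no spike-in for neurons 1 and 2. How many animals or cultures the neurons came from is not given, so p-values describe the spread between these neurons. Reads counted on 3′ ends numbered 545526 to 5803949 in dendrites (median 1319115) and 812776 to 17796226 in somas (median 5033109), and the genes with 2 ends took 20.1 to 33.0% of them in dendrites and 20.7 to 24.3% in somas. A list of 7 neuronal markers summed to 3819 to 11208 RPM (reads scaled to the library total on 3′UTRs) in dendrites and 3525 to 13085 in somas, with all 7 detected in both. The 6 astrocyte markers reached 1295 in the highest dendrite library and 522 in the highest soma (medians 204 and 183). The 5 microglial markers reached 378 and 9.72 (medians 1.06 and 0.180), with Tyrobp at 0 in every dendrite library. The 5 oligodendrocyte markers reached 128 and 119 (medians 3.95 and 2.43). The 5 endothelial markers reached 99.2 and 130 (medians 2.50 and 1.08), although 1 of them, Cldn5, was at 0 in all 32 libraries. The part of other cells in the results below was not tested. The neurons with 3 rounds of amplification stood apart from the rest in their end fractions: between somas of different neurons, the mean absolute difference in end fraction was 0.0690 ± 0.00914 at the same number of rounds and 0.0804 ± 0.0113 at different numbers (SD, n = 16), larger across rounds for all 16. Since these are also neurons 1 to 4, the rounds and the neurons cannot be told apart.

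A messenger RNA receives its 3′ end when the nascent transcript is cut and a poly(A) tail is added, usually a short way after a hexamer, AATAAA or its variant ATTAAA, to which the cleavage machinery binds. Many genes can be cut in more than a single place. Tandem ends lie in the same last exon and shorten or lengthen the 3′UTR, whereas ends in separate last exons also change the sequence before them. Since proteins that carry RNA into dendrites, and those that control its decay and translation, often bind 3′UTRs, the choice of end can decide which of these signals a transcript carries.

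The lower-numbered end was the one further along the transcript, called the distal end here, on both strands, wherever the coordinates that the study lists for single ends could be set beside the annotation, except in Ndufa9 and Ociad2. Of the 1014 genes tested, 963 had their symbol in GENCODE M21 (GRCm38), 543 had exactly 2 annotated ends once ends closer than 500 nt were joined, and 541 of these had ends that could be placed. For the other genes, among them mt-Rnr2, 2410004B18Rik and Ywhae below, distal rests on the numbering alone. The exception is Uck2, for which the study shows the end preferred in dendrites, here the lower-numbered, as the distal one. The sequences that follow are the 30 bases around or before the annotated ends of 6 genes on which the results turn, 5′ to 3′ on the strand of the gene, taken from the GENCODE transcripts, with every copy of the hexamer in the printed bases in capitals where the last 50 bases of the transcript hold it. They are shown because the genes whose distal end was higher in somas often had the hexamer at both ends and those whose distal end was higher in dendrites mostly at the distal end alone. Olfm1 ends at chr2:28230704-28230733 (distal) and chr2:28214396-28214425 (proximal) on the plus strand, in separate last exons 16311 nt apart. Minos1 has tandem ends 1977 nt apart at chr4:139101839-139101868 and chr4:139103794-139103823 on the minus strand, and Taf10 has tandem ends 3503 nt apart at chr7:105739400-105739429 and chr7:105742898-105742927 on the minus strand. In Minos1 and Taf10 the proximal end belongs to transcripts that the annotation does not call coding. Their tandem ends are therefore not shown to be 2 lengths of the same 3′UTR. Rpl31 has tandem ends 545 nt apart at chr1:39371882-39371911 and chr1:39371335-39371364 on the plus strand. Its distal window holds ATTAAA in 2 places, a copy at the very end of the annotated transcript and another further upstream.
Olfm1 distal end: tatctaaggaacAATAAAgatattaggaga
Olfm1 proximal end: attctcaactgacaAATAAAggcctttccc
Minos1 distal end: tgagcttgtccaAATAAActctgcagagcg
Minos1 proximal end: aaggaggtcttaAATAAATTAAAaacggga
Taf10 distal end: tgggagcttttgAATAAAaaccgttacctg
Taf10 proximal end: gcctgttttcatAATAAActttattgtgac
Rpl31 distal end: ttATTAAAaaccttgaggacaaacATTAAA
Rpl31 proximal end: ctgctcgtgtcaAATAAAgttgcagaactg

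The next 2 genes have the hexamer at the distal end only. Pgk1 ends in separate last exons 8923 nt apart, at chrX:106203663-106203692 (distal) and chrX:106194747-106194776 (proximal) on the plus strand. Sv2a ends in separate last exons 7092 nt apart, at chr3:96195480-96195509 and chr3:96188400-96188429 on the plus strand. In both genes the proximal end belongs to transcripts that the annotation does not call coding.
Pgk1 distal end: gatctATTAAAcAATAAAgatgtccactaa
Pgk1 proximal end: gggaagggaaaagatgcttctggaaacaag
Sv2a distal end: atactgctgaaaAATAAAgggttcgaaccc
Sv2a proximal end: ctgtgtttgccatcggggctctgactacgc

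Among the 541 genes with placed ends, 182 had tandem ends and 359 had separate last exons. The ends lay a median of 3091 nt apart (524 to 208040 nt). A coding transcript ended at the proximal end in 65.9% of the genes with tandem ends and 18.9% of those with separate last exons. Either hexamer, searched on the strand of the gene, was found within the last 50 bases of 87.2% of the distal ends and 20.1% of the proximal ends, and the proximal end belonged to a coding transcript in 34.8% of the genes. Use of the ends differed along the same line. With the hexamer at the distal end alone (384 genes), the median distal fraction, averaged over both compartments, was 0.979. It was 0.717 where both ends had the hexamer (88 genes), 0.943 where neither had it (48 genes) and 0.168 where only the proximal end had it (21 genes). Genes with tandem ends had a median of 0.887 and those with separate last exons 0.975. The distal end took most of the reads in 92.4% of the 353 genes whose proximal end was annotated as non-coding only and in 67.6% of the 188 genes with a coding transcript at the proximal end. These values describe the genes and were not tested.

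**Figure D1:**
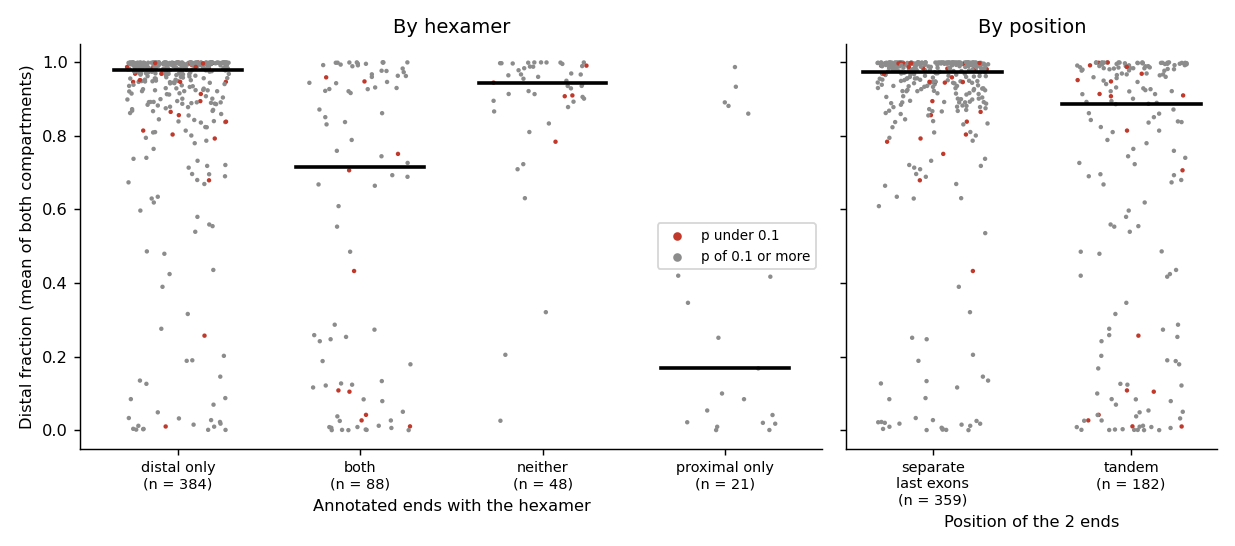
Distal fraction (mean of dendrites and somas, y axis) of the 541 genes with placed ends, by which annotated ends hold the hexamer (left) and by whether the ends are tandem or in separate last exons (right). Points are genes, red where the signed-rank p was under 0.1, and bars are medians, which fall from 0.979 with the hexamer at the distal end only to 0.168 with it at the proximal end only.

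Reads reached the minimum in 1105 of the 5477 genes (20.2%), and the other 4372 were not compared, among them 570 with no read in any library. A single end took all the reads of 91 of the 1105 genes, and the silent end was the proximal one in 70 of these and the distal one in 21, which left 1014 genes to test. The minimum of 5 neurons left out 166 genes that met the read minimum in 4 neurons, with a median distal fraction of 0.918 and median reads of 66.5 in dendrites and 159 in somas. The 148 genes that met it in exactly 5 had 0.919, 63.5 and 160.5, so that the genes on both sides of the limit were alike in these values. The tested genes had their minimum in a median of 9 neurons, and 80 genes had it in all 16.

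Most of these genes used a single end almost exclusively. The mean distal fraction was at least 0.9 in 574 of the 1014 genes in dendrites (56.6%) and in 622 in somas (61.3%). It was at most 0.1 in 126 genes in dendrites and 151 in somas, which left 314 genes (31.0%) and 241 genes (23.8%) with a mean between these limits. Such a mean can stand for a mixture in each neuron or for neurons that used different ends. In a single library a mixture of both ends was rarer, and rarer in dendrites than in somas. A gene had all of its reads on the same end in 65.9% of the 9911 dendrite values and 50.9% of the 9911 soma values, and a fraction between 0.1 and 0.9 in 14.3% and 18.8%. The end with more reads was the distal one in 786 genes and the proximal one in 228, and it was not the same end in dendrites and somas in 34 genes (3.35%).

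With the exact Wilcoxon signed-rank test over neurons and the study's threshold of an unadjusted p under 0.1, 81 of the 1014 genes (7.99%) had a different distal fraction in dendrites and somas. Over all 3519 tested genes with 2 or more ends, where the 2 most used ends were compared, the same rule called 8.41%, and in the 2505 genes with 3 or more ends 8.58%. The distal end was higher in dendrites in 53 of the 81 genes, which is 5.23% of those tested against 5.4% over all genes and 5.47% of those with 3 or more ends. It was higher in somas in 28, or 2.76% against 3.01% and 3.11%, with Ndufa9 and Ociad2 counted by their lower-numbered end. The genes with 2 ends were therefore called at the rate of the whole table. The split between the directions moved with the settings, to 47 and 12 with the 2-round neurons alone, 31 and 13 at p under 0.05 and 37 and 26 with equal reads in both compartments. In 489 genes fewer than 5 neurons had a difference other than 0, so that the smallest p they could reach was 0.125. After Benjamini-Hochberg adjustment over the 3519 genes, the signed-rank test left 0 genes with an adjusted p under 0.1 (the smallest was 0.286), while 44 of the genes with 2 ends had an unadjusted p under 0.05 and 15 under 0.01, and edgeR's test of end usage, given below, left 9. At the threshold, the last gene called had p = 0.0977 and the next 2 had p = 0.102 (exact signed-rank test).

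The 81 called genes moved mostly toward the end they already used most. In 68 of them the more used end took a higher fraction in dendrites and in 13 in somas, while over all 1014 genes the counts were 478 and 496. The median absolute difference was 0.0576 in the called genes and 0.0202 in all tested genes. It was at least 0.1 in 28 of the called genes and at least 0.2 in 19, and 17 called genes differed by less than 0.01. Somas had more reads than dendrites in 78 of the 81 genes (975 of the 1014), with medians of 558 and 122.5 reads. When the deeper compartment of each pair was thinned to the reads of the shallower, in 20 random draws, 59 to 70 genes were called (median 64), of which 53 to 64 were among the 81, and 46 to 57 moved toward the more used end in dendrites. Among the 50 called genes with placed ends, 29 of the 35 with the hexamer at the distal end only had the distal end higher in dendrites, while 8 of the 10 with the hexamer at both ends had it higher in somas. Of the tested genes as a whole, those with the hexamer at the distal end only split into 207 and 163, and those with it at both ends into 36 and 48. The distal end was the more used in 91.4% of the former and 58.0% of the latter. Called genes with placed ends split into 35 and 7 where the distal end was the more used, and 1 and 7 where the proximal end was. Whether the hexamer adds to the move toward the more used end was not tested.

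Where the distal end was higher in dendrites, a few genes changed by a large part of their transcripts. The distal fraction of 2410004B18Rik lay between 0.652 and 1 in the dendrites of 9 neurons (median 0.995) and between 0 and 0.801 in their somas (median 0.342). It was higher in the dendrites of all 9 neurons, by 0.573 ± 0.283 (SD, exact signed-rank test, p = 0.00391, adjusted p = 0.821 by Benjamini-Hochberg), although the range of the somas reached into that of the dendrites. Uck2, a kinase that salvages uridine and cytidine, had a distal fraction of 0.793 to 1 in dendrites (median 0.995) and 0.109 to 1 in somas (median 0.720). The dendrites were higher in 13 of 15 neurons, lower in 1 and equal in 1, with a difference of 0.241 ± 0.271 (SD, n = 15, p = 0.00171).

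Lamtor2, a subunit of the Ragulator complex that anchors mTORC1 signalling to lysosomes, had a distal fraction of 0 to 0.944 in dendrites (median 0.724) and 0 to 0.542 in somas (median 0.241). It was higher in the dendrites of 9 of 11 neurons, by 0.352 ± 0.378 (SD, p = 0.0137), and the groups overlapped over the whole range of the somas. This gene had few reads, with medians of 54 in dendrites and 89 in somas, and with a minimum of 5 or of 20 reads it was no longer called (p = 0.110 and 0.109). In Tmem126a, a protein of the inner mitochondrial membrane, a single soma stood far from all others. Its distal fraction was 0.969 to 1 in dendrites (median 1) and 0.0938 to 1 in somas (median 0.975), and it was higher in dendrites in 8 neurons and in somas in 1 (n = 11, exact signed-rank p = 0.00781).

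In 7 other genes of this direction that the rule for named genes chose, the distal end took nearly all reads in both compartments, and the called difference was a small number of proximal reads in somas. Pgk1, an enzyme of glycolysis, had 0 proximal reads among 2641 in all dendrites and 95 proximal against 20498 distal reads in somas. Its distal fraction was 1 in all 13 dendrites and 0.977 to 1 in somas (median 0.996), lower in the soma of 12 of 13 neurons (exact signed-rank p = 0.000488, adjusted p = 0.286). Sv2a, a glycoprotein of synaptic vesicles, had 3 proximal reads against 25772 distal reads in dendrites and 516 against 211000 in somas, with all 10 neurons that differed lower in the soma (n = 15, exact signed-rank p = 0.00195).

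Ywhae, an adaptor protein that binds phosphorylated partners, had 6 proximal and 15669 distal reads in dendrites and 1220 and 86578 in somas. Its distal fraction lay between 0.996 and 1 in dendrites and between 0.968 and 1 in somas (medians 1 and 0.997), higher in the dendrites of 13 of 16 neurons (p = 0.00427). In the pairs that met the minimum, the distal fraction of Slc25a11, the mitochondrial carrier of malate and oxoglutarate, was at least 0.982. There it was at least 0.939 in Scoc, 0.993 in Fscn1, which bundles actin, and 0.973 in Rab3a, a GTPase of synaptic vesicle release. The mean differences of these 4 genes lay between 0.00218 (Fscn1) and 0.0141 (Scoc). With equal reads in both compartments, Slc25a11 and Fscn1 were no longer called (exact signed-rank p = 0.125 and 0.250).

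Among the genes whose distal end was higher in somas, the smallest p belonged to mt-Rnr2, the large ribosomal RNA of mitochondria, which is also the gene with the most reads here (medians of 88208 in dendrites and 31900.5 in somas). Its lower-numbered end took 0.245 to 0.667 of the reads in dendrites (median 0.365) and 0.279 to 0.831 in somas (median 0.501). The soma was higher in 15 of 16 neurons (dendrites minus somas -0.148 ± 0.135, SD, exact signed-rank p = 0.000305, adjusted p = 0.286 by Benjamini-Hochberg), while the ranges overlapped widely. The difference was -0.119 in the 12 neurons of 2 rounds and -0.235 in the 4 with 3 rounds (exact permutation test, p = 0.138). Nuclear copies of mitochondrial sequence can share reads with this gene, and edgeR's test of end usage did not call it (p = 0.181).

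Olfm1, a secreted protein found at synapses, kept a mixture of ends in both compartments of all 15 neurons that met the minimum. The distal fraction was 0.197 to 0.915 in dendrites (median 0.746) and 0.486 to 0.904 in somas (median 0.848). It was higher in the soma of 12 of 15 neurons, with a difference of -0.110 ± 0.127 (SD, p = 0.00671), and ranges that overlapped over most of their length. Mapk8ip2, a scaffold protein of the JNK pathway, varied more between dendrites, from 0 to 0.993 (median 0.485), than between somas, from 0.378 to 0.967 (median 0.889). Its soma was higher in 10 of 12 neurons (dendrites minus somas -0.249 ± 0.356, SD, p = 0.0210).

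**Figure D2:**
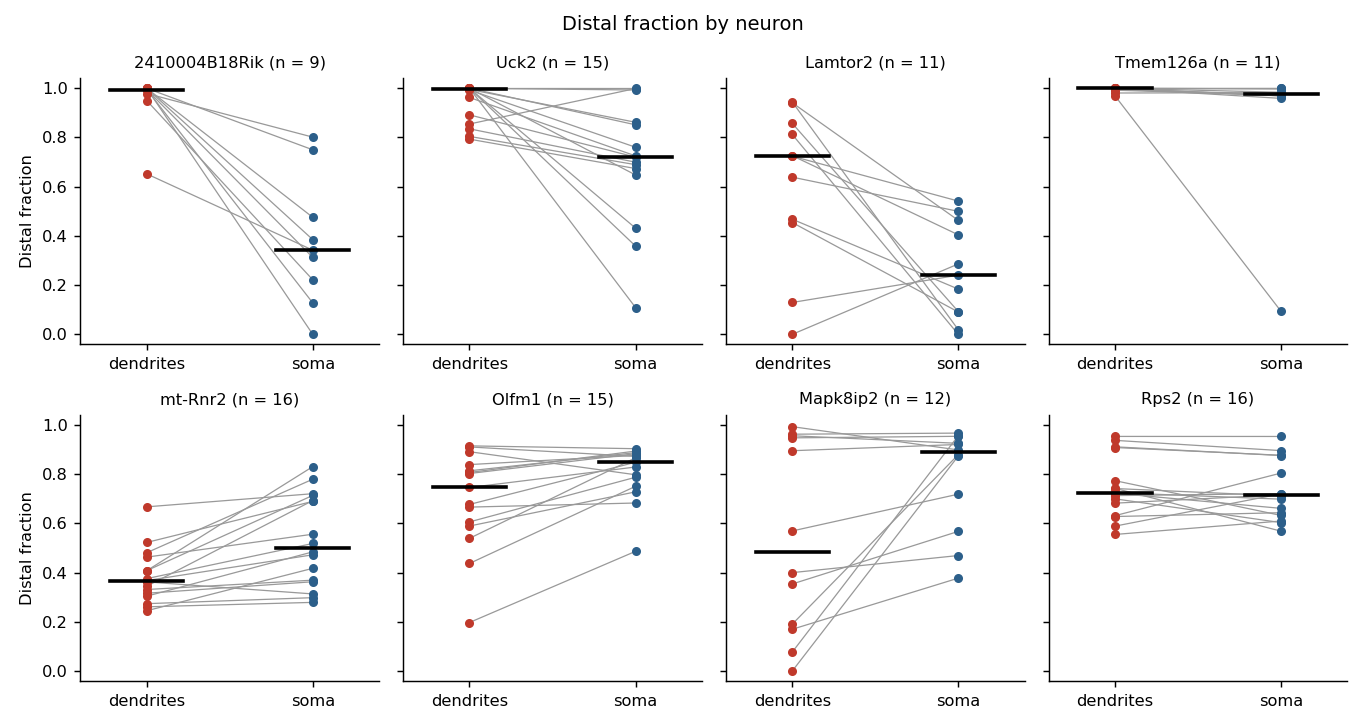
Distal fraction (y axis) in the dendrites and the soma of each neuron for 7 of the called genes and for Rps2, which was not called. Lines join the compartments of a neuron and bars are medians, which stand higher in dendrites in the upper row (0.995 against 0.342 in 2410004B18Rik) and higher in somas in mt-Rnr2, Olfm1 and Mapk8ip2 (0.485 against 0.889).

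In 6 further genes of this direction the proximal end was the main one and its share was higher in dendrites. Minos1, a subunit of the complex that shapes mitochondrial cristae, had 21 distal and 19150 proximal reads in dendrites and 1321 and 25784 in somas. Its distal fraction did not exceed 0.0349 in any dendrite (median 0) and reached 0.195 in somas (median 0.0348), higher in the soma of 10 of 16 neurons and lower in 2 (p = 0.00684). Rpl31, a protein of the large ribosomal subunit, had a distal fraction of 0 to 0.115 in dendrites (median 0) and 0 to 0.227 in somas (median 0.0665). The soma was higher in 11 neurons and lower in 1, with a difference of -0.0612 ± 0.0822 (SD, n = 16, p = 0.00928). Taf10, a subunit of the general transcription factor TFIID, had a distal fraction of 0 to 0.220 in dendrites and 0 to 0.944 in somas (medians 0 and 0.0644), higher in the soma of 8 neurons and lower in 1 (n = 15, exact signed-rank p = 0.0391).

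Gnai1, an inhibitory G protein subunit, had 4 distal reads against 6470 proximal reads in dendrites and 1767 against 88410 in somas, with all 9 neurons that differed higher in the soma (n = 15, exact signed-rank p = 0.00391). Mllt11 had 0 distal reads among 43071 in dendrites and a distal fraction of at most 0.00459 in somas (exact signed-rank p = 0.0156), and Atp5g1, a subunit of the membrane ring of ATP synthase, had 103 against 45534 and 2321 against 97159 (p = 0.0353, and 0.115 by an exact sign-flip test of the mean). The remaining 3 genes had mixtures in somas. Lysmd4 had a median distal fraction of 0 in dendrites and 0.273 in somas (n = 9, exact signed-rank p = 0.0156). Mrps33, of the mitochondrial ribosome, had 0.727 and 0.943 (n = 7, exact signed-rank p = 0.0312), and Ndufa9, of respiratory complex I, had a median fraction of 0.0444 and 0.325 on its lower-numbered end, whose position was not settled (p = 0.0425).

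The more used end itself differed between the compartments in 34 genes, of which 7 were called. Besides mt-Rnr2, 2410004B18Rik and Lamtor2 these were Hint3, Pcgf5, Ociad2 and E2f6, which are named because they belong to this count and were outside the rule for named genes. The mean distal fraction of Pcgf5, a subunit of a Polycomb complex, was 0.883 in dendrites and 0.281 in somas, higher in the dendrites of all 5 neurons tested (exact signed-rank p = 0.0625, the smallest that 5 neurons allow). Hint3 had 0.241 and 0.581 (6 neurons, exact signed-rank p = 0.0625). Ociad2 had 0.482 and 0.762 on its lower-numbered end (10 neurons, p = 0.0742). E2f6, a transcriptional repressor, had 0.325 and 0.818 (7 neurons, exact signed-rank p = 0.0781).

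The counts of the ends were also compared with edgeR's test of differential usage, with the neuron as a block, in which the lowest counts were filtered out. It covered 304 of the genes with 2 ends and gave 84 with a p under 0.1 (27.6%), against 35.8% of the 1431 genes with 2 or more ends. After Benjamini-Hochberg adjustment over the 1431 genes, 9 of the 304 (2.96%) had an adjusted p under 0.1, against 2.31% of all, with the distal end higher in dendrites in 4 and in somas in 5. The 4 were Ywhae, 2410004B18Rik, Ranbp1 and Uck2, and the 5 were Rbm34, Rpl31, E2f6, Minos1 and Arl8b, of which Rbm34, E2f6 and Arl8b lie outside the rule for named genes and were named after their values were seen. The signed-rank test had called 7 of the 8 that it tested, while at an unadjusted p under 0.1 edgeR called only 23 of the 40 signed-rank calls that it covered. The smallest adjusted p, 0.0354 in edgeR's test, was shared by Rpl31, whose log2 ratio of distal to proximal reads was lower in dendrites (difference -4.14), and Rbm34, an RNA-binding protein that met the read minimum in only 3 neurons. Arl8b, a GTPase that moves lysosomes, had a distal fraction of 0 to 0.395 in dendrites and 0 to 0.287 in somas (medians 0 and 0.0721), higher in the soma of 10 of 13 neurons (signed-rank p = 0.110).

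Genes grouped by function had between 1 and 4 called genes in every list. Over all 1014 tested genes, 7.99% were called, 5.23% with the distal end higher in dendrites and 2.76% with it higher in somas. Whether any list differed from these shares was not tested. The median differences of the lists, dendrites minus somas, ran from -0.0177 (synaptic proteins) to 0.0174 (vesicle and endosome traffic), beside 0 over all tested genes. Of 31 cytosolic ribosomal protein genes with 2 ends, 29 were tested and 1 was called, Rpl31, with a median difference of -0.00139. Ribosomal protein genes have many near-identical pseudogenes, so the split of their reads is uncertain. They used both ends more than most genes: the median chance that 2 reads of the gene in a library lie on different ends, called end mixing here, was 0.120 in dendrites and 0.124 in somas, against 0.0250 and 0.0312 over all 1014 genes. Rps2 had a distal fraction of 0.555 to 0.953 in dendrites and 0.568 to 0.953 in somas (medians 0.724 and 0.714), and Rplp0 had 0.959 to 1 and 0.908 to 1 (medians 0.983 and 0.978). Neither gene was called (p = 0.375 and 0.169). The range of Rps2 followed the rounds of amplification. With 3 rounds its distal fraction was 0.908 to 0.953 in dendrites and 0.876 to 0.953 in somas, above all values with 2 rounds (0.555 to 0.774 and 0.568 to 0.805). Rpl11 and Rpl9 used a single end, with a distal fraction of at most 0.0415 in Rpl11 and at least 0.963 in Rpl9 in every library.

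Of the 28 nuclear genes for proteins of the respiratory complexes or of ATP synthase, 26 were tested. The 4 called were Atp5g1, Atp5h, Ndufa10 and Ndufa9, with the lower-numbered end higher in somas in 3 and in dendrites in 1. The 3 include Ndufa9, in which the position of that end was not settled. Several of the most abundant used the proximal end almost alone. Cox6c had 34 distal against 111121 proximal reads in dendrites and 1 against 120882 in somas, Ndufa4 had 1 against 71641 and 1 against 104149, and Ndufc1 had a distal fraction of 0 to 0.117 and 0 to 0.0563 (p = 0.578).

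Ubiquitin conjugation and the proteasome had 15 tested genes and 1 call, Psma6. Psmb4, a subunit of the proteasome core, kept a mixture in both compartments, with a distal fraction of 0.552 to 0.903 in dendrites and 0.492 to 0.946 in somas (medians 0.706 and 0.700, p = 0.277). Its values with 3 rounds, from 0.831 in dendrites and 0.759 in somas, lay above all values with 2 rounds, which reached 0.817 and 0.739. Psmb6 had medians of 0.991 and 0.975 (p = 0.151) and Psmc2 and Ube2m were at 0.998 or above in every pair that met the minimum. Vesicle and endosome traffic had 22 tested genes and 3 calls, Arl1, Rab11fip2 and Rab3a. All 3 had the distal end higher in dendrites, as did 53 of all 81 calls. Among the Rab GTPases of this list, which direct vesicles to their target membranes, the distal fraction of Rab3b ran from 0 to 1 in dendrites and from 0 to 0.305 in somas (medians 0.0877 and 0.129, p = 0.153), Rab2a had medians of 1 and 0.932 (p = 0.782) and Rab5b 1 and 0.998 (p = 0.148). Single dendrites thus had Rab3b reads on either end alone, while no soma had more than 0.305 on the distal end.

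RNA binding and splicing factors had 12 tested genes and 2 calls, Rbm17 and Snrpb, in opposite directions, beside 7.99% called over all tested genes. Hnrnpab, a splicing factor and RNA carrier, had a distal fraction of 0 to 0.875 in dendrites (median 0.0123) and 0.117 to 0.426 in somas (median 0.170), lower in the dendrites of 8 of 11 neurons (p = 0.320). Its dendrites fell on both sides of the narrow range of the somas, and end mixing was 0.110 and 0.307. Hnrnpa1 had medians of 0 and 0.326 (n = 10, p = 0.742), Pabpn1, a nuclear poly(A)-binding protein, 0.0887 and 0.0471 (p = 0.765), and Pabpc1, its cytoplasmic relative, 1 and 1 (exact signed-rank p = 0.570).

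The cytoskeleton and its motors had 21 tested genes and 4 calls, Actg1, Dctn3, Dctn5 and Dynll2. All 4 had the distal end higher in dendrites, the direction of 53 of all 81 calls. Dynll2, a dynein light chain, had 3 proximal against 36378 distal reads in dendrites and 56 against 102102 in somas (exact signed-rank p = 0.0742). Nefl, the light neurofilament subunit, had a distal fraction of 0 to 1 in dendrites and 0.220 to 1 in somas (medians 0.656 and 0.576, p = 0.433), and Stmn2, which regulates microtubules, had medians of 0.994 and 0.999 (p = 0.670). Synaptic proteins had 9 tested genes and 2 calls, Sv2a and Ap2a2. Dlgap4, a scaffold protein of the postsynaptic density, had 0 to 1 and 0.127 to 0.800 (medians 0.398 and 0.517, p = 0.561), and Cacng2, which regulates AMPA receptors, had 0.0133 to 1 and 0.424 to 1 (medians 0.730 and 0.722, p = 0.426). The dendrites of Nefl, Dlgap4 and Cacng2 reached or came near both extremes.

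Of the 4 genes in a list of genes known for alternative 3′ ends, Ranbp1, which acts in nuclear transport, was called. Its distal fraction was 0.480 to 1 in dendrites and 0.865 to 1 in somas (medians 1 and 0.952), higher in the dendrites of 11 of 14 neurons (p = 0.0266), but the mean difference was 0.0128 and an exact sign-flip test of the mean gave p = 0.922. Actb, the cytoplasmic beta-actin, had medians of 0.983 and 0.946 and no value under 0.897, higher in the dendrites of 11 of 16 neurons (p = 0.117). App, the amyloid precursor protein, had medians of 0.00100 and 0.0202 (p = 0.685).

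The genes with the most and the least mixing showed how far members of the group differed. Among genes tested in at least 12 neurons, mt-Rnr2 and Rpl30 were among the 3 with the highest mixing. Rpl30 had a distal fraction of 0.351 to 0.836 in dendrites and 0.362 to 0.851 in somas (medians 0.532 and 0.478, p = 0.159). It too was split by the rounds of amplification, with at most 0.705 in dendrites and 0.520 in somas with 2 rounds and at least 0.774 and 0.642 with 3. At the other limit, Dcun1d4, Grk6 and Rbbp7 had a distal fraction of 1 in every pair that met the minimum. Over all 16 neurons, Rbbp7, a histone-binding chaperone, had 6038 distal reads in dendrites and 30123 in somas and a single proximal read, in somas.

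Across genes, dendrites had reads on both ends less often than their own somas. Of the genes with at least 10 reads in both compartments of a neuron (198 to 789 genes, median 690.5), 24.3 to 48.9% had reads on both ends in dendrites (median 33.0%) and 29.2 to 65.6% in somas (median 48.5%). The mean was 33.0% ± 6.40 in dendrites and 48.4% ± 9.77 in somas (SD, n = 16), a difference of -15.4 ± 12.6 percentage points that was negative in 14 of 16 neurons (p = 0.000427 in a two-sided exact sign-flip test). Neuron 5, with 48.9% in dendrites and 36.7% in its soma, and neuron 12, with 29.5% and 29.2%, were the exceptions. The difference was -16.0 ± 13.9 points in the 12 neurons of 2 rounds and -13.5 ± 8.68 in the 4 with 3 rounds (SD, exact permutation test over 1820 splits, p = 0.735). The read number per gene moved with it, with a median over neurons of 160.5 in dendrites and 538.5 in somas. When every gene and library was thinned to 10 reads, the shares were 17.7% ± 4.82 and 23.4% ± 4.12, and the difference was -5.69 ± 5.83 points (SD, n = 16, exact sign-flip p = 0.00201).

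End mixing, which does not change with the number of reads drawn, was also lower in dendrites. It averaged 0.0441 to 0.106 over genes in dendrites (median 0.0587) and 0.0554 to 0.109 in somas (median 0.0787). The means were 0.0625 ± 0.0173 and 0.0820 ± 0.0141 (SD, n = 16), with a difference of -0.0195 ± 0.0199 that was negative in 15 of 16 neurons, neuron 5 being the exception (exact sign-flip permutation test, p = 0.00204). It was -0.0214 ± 0.0222 with 2 rounds and -0.0138 ± 0.0107 with 3 rounds (exact permutation test, p = 0.516). The reads carry no molecular identifiers, so how many transcripts stand behind a library is unknown, and fewer captured transcripts and a narrower choice of ends cannot be told apart. In genes with 3 or more ends, mixing between the 2 most used ends was 0.0822 ± 0.0303 in dendrites and 0.121 ± 0.0204 in somas. Those 2 ends were picked for their reads, which by itself favours mixing, so these values are a description and no test of how genes with 2 ends differ.

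**Figure D3:**
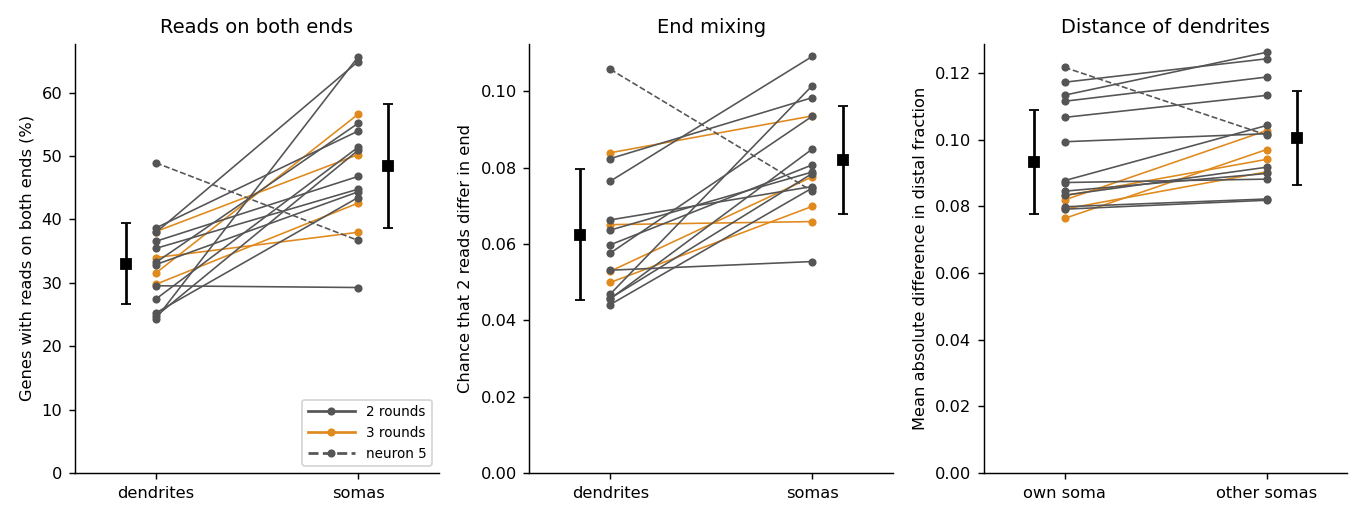
Share of genes with reads on both ends (left), mean end mixing (middle) and mean absolute difference in distal fraction of the dendrites from their own soma and from the other somas (right), with a line for each of the 16 neurons, in orange for 3 rounds of amplification and dashed for neuron 5. Squares are means with the SD, 33.0% and 48.4% in the left panel, and nearly every line rises from left to right.

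Averaged over genes, the distal fraction differed between the compartments by less than the spread between neurons. The distal fraction averaged over genes was 0.691 to 0.778 in dendrites and 0.696 to 0.785 in somas, with means of 0.739 ± 0.0205 and 0.744 ± 0.0204 (SD, n = 16). The difference of -0.00511 ± 0.0120 was negative in 10 of 16 neurons (exact sign-flip permutation test, p = 0.109). When the genes were summarised by their median the difference was 0.0105, in the other direction (p = 0.0112 by the same exact test).

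The dendrites of a neuron were slightly closer to their own soma than to the somas of all other neurons. Over all 16 neurons this was not detectable once the other somas had the same rounds of amplification. The mean absolute difference in distal fraction was 0.0764 to 0.122 from the own soma (median 0.0859) and 0.0818 to 0.126 from the other somas over the same genes (median 0.0992). The means were 0.0933 ± 0.0157 and 0.101 ± 0.0140, and the own soma was closer in 15 of 16 neurons (own minus other -0.00723 ± 0.00960, SD, exact sign-flip permutation test, p = 0.00989). The exception was again neuron 5, and without it the difference was -0.00907 (p = 6.10e-05, the smallest that 15 neurons can give, exact sign-flip test). In the 12 neurons with 2 rounds alone it was -0.00435 ± 0.00898 (p = 0.125, exact sign-flip test) and in the 4 with 3 rounds -0.0159 ± 0.00561. The other somas in this comparison included those with a different number of rounds. Against somas with the same number alone, a comparison chosen after seeing the data, the means were 0.0927 ± 0.0163 and 0.0961 ± 0.0156, and own minus other was -0.00344 ± 0.00919, negative in 13 of 16 neurons (SD, exact sign-flip permutation test, p = 0.157). Neuron 5 again lay furthest in the other direction, at 0.0243. This comparison was not repeated without it, so how far the result rests on that neuron was not tested. For scale, dendrites of different neurons differed by 0.114 ± 0.0124 and somas of different neurons by 0.0760 ± 0.00929 (SD, n = 16). The distal fraction of single genes likewise varied more over neurons in dendrites in 589 genes and in somas in 385, but among the 81 called genes it varied more in somas in 59. The 81 were chosen by these same fractions, and in 68 of them the more used end took a higher fraction in dendrites. The count of 59 therefore describes the chosen genes and is no separate test.

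At the level of whole genes, the amounts of the genes with a called end fraction passed the test about as often as those of all genes with tested ends. With edgeR's quasi-likelihood test on the reads over all 3′UTRs of a gene and the neuron as a block, 15 of 2288 genes with 2 ends were higher in dendrites and 160 in somas (7.65% in all, at an adjusted p of at most 0.05 by Benjamini-Hochberg). Of all 10880 genes tested, 6.53% passed this threshold, 0.827% with more in dendrites and 5.71% with more in somas, and without the neuron as a block the counts for genes with 2 ends were 32 and 16. Of the 81 genes called by their ends, 1 was higher in dendrites and 2 in somas (3.70%), against 4.15% of the 1011 genes with tested ends in this fit. DESeq2 called far more of both, 50.6% and 52.6%. The median log2 fold change of edgeR, dendrites over somas, was -1.01 in the 81 genes, -1.24 in those with tested ends and -1.49 in all genes, but the order turned without the neuron as a block (-0.45, -0.26 and -0.22) and changed without the filter on low counts (-1.11, -1.30 and -0.17). Among the genes described above, mt-Rnr2 had a log2 fold change of 3.41 (SE 0.29) and Cox6c of 1.49 (SE 0.37, adjusted p = 0.0167, edgeR). Ndufa4 had 1.21 (SE 0.39, adjusted p = 0.0489, edgeR), while Uck2, whose end fraction differed by 0.241, had -0.14 (SE 0.73, adjusted p = 0.906, edgeR).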

How the data were processed

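Soma and dendrite libraries of 16 neurons were paired by neuron, as the labels give both compartments of the same cell. Per the labels and the study's methods, the authors trimmed the reads, aligned them to mm10 with STAR 2.4.0, counted reads over the final 500 nt before every 3′ end, with closer ends joined, and deposited whole-number read counts of uniquely mapped reads, not normalized and without molecular identifiers. Counts on exons were not used here. Among all 496 pairs of libraries, 0 held identical counts.

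From the deposited counts, the fraction on the lower-numbered end was computed for pairs with at least 10 reads in both compartments and genes with at least 5 such pairs. For genes with more ends, the 2 with the highest summed fraction were used. Fractions were compared with the exact Wilcoxon signed-rank test (two-sided, differences of 0 dropped), called at p under 0.1 as in the study, with Benjamini-Hochberg adjustment over all tested genes with 2 or more ends. Values per neuron were set against each other in exact sign-flip tests, and 2 with 3 rounds of amplification by exact permutation over 1820 splits, the sign-flip adjusted p over these 6 being at most 0.0119 except for the mean distal fraction (0.109). The comparison of mixing with genes of more ends tests no property of genes with 2 ends, since the most used ends were picked there. Both compartments of a neuron come from the same cell, which is where the pairing comes from. The report gives how close their fractions were. Gene counts and end usage were tested with edgeR 4.0.16 (R 4.3.3) with neuron as a block, and DESeq2 1.42.0 was an alternative. The gene-level test took genes that had a read in 16 or more libraries. The rest used Python 3.11.15, NumPy 2.4.6, pandas 2.3.3 and SciPy 1.17.1. The tests were tested on simulated data.

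Positions and sequences came from GENCODE M21 (GRCm38, the mm10 assembly), not from the authors' own annotation. The members, lists and tests were chosen with earlier results of these data known. The named genes were, in each direction, the 12 with the smallest p among called genes whose differences went the same way in at least 80% of neurons, the list of known alternative ends, the 3 with most and the 3 with least mixing among genes tested in at least 12 neurons, and up to 4 examples per list with most pairs and reads. A few genes that the rule chose are not reported here. Alternatives covered the test, the pairing, the minimum reads and neurons, equal reads, the rounds of amplification, neuron 5, the threshold, the scaling and the filter.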

Additional observations from a re-analysis of the deposited data

Results flagged for a closer look

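The closeness of dendrites to their own soma differed between 2 and 3 rounds of amplification. The own soma was closer than the other somas on average in both groups, with own minus other of -0.00435 ± 0.00898 in the 12 neurons with 2 rounds and -0.0159 ± 0.00561 in the 4 with 3 rounds (SD), a difference between the groups with p = 0.0291 (exact permutation test over 1820 splits, adjusted p = 0.0874 over 6 such comparisons by Benjamini-Hochberg). Against somas of the same rounds alone these were -0.00264 ± 0.00973 and -0.00584 ± 0.00802. The neurons of 3 rounds were also those numbered 1 to 4, and the spike-in differed for 2 of them, so these cannot be told apart.

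In somas, end mixing of genes with 2 ends lay further below that of genes with more ends with 3 rounds (-0.0486 ± 0.00625, SD, n = 4) than with 2 rounds (-0.0352 ± 0.00956, n = 12), with p = 0.0203 (exact permutation test, adjusted p = 0.0874 by Benjamini-Hochberg). The ends of the genes with more ends were picked as the most used, which favours mixing there. Pabpn1 had mean differences of 0.189 (n = 9) and -0.313 (n = 3), with p = 0.0364 (exact permutation test, adjusted p = 0.961 over the named genes by Benjamini-Hochberg).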

How the results depend on the processing

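The number of called genes stayed within 1.5 times of 81 with the other tests, minima, equal reads, 2 rounds alone or without neuron 5 (59 to 121 genes), and moved to 44 at p under 0.05, to 0 at an adjusted p under 0.1 and to 28 with a mean difference of at least 0.1, a setting chosen after seeing the data. Without pairing (no replicate block) 121 genes were called, of which 62 were among the 81, and edgeR's end usage called 84 of 304. With 4 neurons no p can fall below 0.125. The 3-round neurons had this p for reads on both ends (-13.5 points), mixing (-0.0138) and the distance from the own soma (-0.0159). They also had it for mixing against genes with more ends (-0.0318 in dendrites and -0.0486 in somas). For their mean distal fraction (-0.00526) and their distance against somas of the same rounds (-0.00584), p was 0.25 (exact sign-flip test). With 2 rounds alone the distance against all other somas was -0.00435 (p = 0.125, exact sign-flip test). Over all 16 neurons, the distance against other somas of the same rounds, added after seeing the data, was -0.00344 (p = 0.157). The mean distal fraction turned from -0.00511 to 0.0105 with the median over genes. Without neuron 5, the difference between rounds in mixing against genes with more ends in dendrites was 0.0183 (p = 0.0366, exact permutation test, against 0.0703 with it), and Dynll2 was no longer called. The other per-neuron results kept their direction and their side of the threshold, but the distance against somas of the same rounds was not repeated without neuron 5. At the gene level, 175 called genes (7.65%, against 6.53% of all genes) became 1211 with DESeq2 (77 higher in dendrites; 52.9% against 50.5%), 263 with DESeq2's size factors in edgeR (12; 11.5% against 10.0%), 37 without the filter (2; 0.745% against 0.508%) and 48 without the neuron as a block (32; 2.10% against 2.15%), where most were higher in dendrites. The cause of these changes was not tested.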
